A study of Mus musculus with 12 samples.

Results

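Colonized and germ-free mice that had both received tylosin early in life were compared by the RNA of the terminal ileum. The comparison took the 3 specific pathogen-free mice given pulsed antibiotic treatment (SPF PAT) against the 3 germ-free mice given the same treatment (GF PAT), which together are 6 of the 12 mice measured, and a difference is the mean log2 value of SPF PAT minus that of GF PAT. All 556 genes with values were used, so that no gene was chosen by its values. The mice were named by their numbers in the labels, SPF PAT 27, 26 and 21 and GF PAT 43, 42 and 41.

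All 12 animals were male C57BL/6 mice labelled week 7, which the methods of the study give as postnatal day 50. The 6 PAT mice had received tylosin, a macrolide antibiotic, from day 5 of life for 5 days, so the drug had been withdrawn long before the tissue was taken. SPF mice carry a gut microbiota free of listed pathogens, and GF mice carry none. The 3 SPF control and 3 GF control mice received water without tylosin and give the colonization effect without the drug. SPF litters were bred from purchased animals and GF mice came from a colony of the institution, so colonization and breeding colony cannot be told apart, and the labels tie no mouse to a litter or cage. No measure of the microbiota was analysed here for these mice.

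A gut microbiota normally drives much of the immune maturation of the ileum. Microbial signals act on the epithelium, which secretes acute-phase and antibacterial proteins such as serum amyloid A, and through dendritic cells on T cells of the lamina propria and on plasma cells that make IgA. Ileum raised without microbes is known for few intraepithelial lymphocytes, low MHC class II and few IgA plasma cells. The gene panel used here reads these arms at the RNA level.

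RNA was counted with a NanoString nCounter mouse immunology panel, in which each gene is read by a colour-coded probe pair without amplification. Values are log2 of counts normalized with DESeq2, so a difference of 1 is a doubling. The recovered counts totalled 600308 to 671692 in SPF PAT, 631071 to 674188 in GF PAT, 806043 to 923395 in SPF control and 626329 to 681370 in GF control mice. The defining markers of small intestinal epithelium, including Pigr, Ccl25, Itln1 and Mme, were counted in every mouse. One SPF PAT library, mouse 21, stood apart from the other two. Over all genes, and compared only with the other PAT mice, it lay nearest to GF PAT 41, at a Euclidean distance of 12.9 log2 units. Its distances from SPF PAT 27 and 26 were 29.2 and 27.4. B cell markers differed widely between these mice, and their values are given with the gene groups.

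Few genes differed between colonized and germ-free mice exposed to tylosin. By limma with Benjamini-Hochberg adjustment over all genes, 8 of 556 genes passed an adjusted p of 0.05, a background of 1.44%, of which 5 were higher (0.899%) and 3 lower (0.54%) in SPF PAT than in GF PAT. In mice without tylosin the same test called 234 genes (42.1%), 108 higher (19.4%) and 126 lower (22.7%) in SPF control than in GF control, a split that was 57 and 169 when each mouse was centred on its median. Without adjustment, 56 genes (10.1%) had a p under 0.05 in the PAT comparison and 290 (52.2%) in the control comparison. The median size of the difference over all genes was 0.214 on the log2 scale in PAT mice and 0.635 in control mice, and the median signed difference in PAT mice was -0.03. The median gene SD within groups was largest in SPF PAT, at 0.296. It was 0.209 in GF PAT, 0.255 in SPF control and 0.250 in GF control mice. The median distance within SPF PAT was 27.4 log2 units, against 17.6 within GF PAT and 20.3 between these groups. Without SPF PAT mouse 21, 102 genes had an unadjusted limma p under 0.05 in the PAT comparison. The part of this spread in the number of calls was not tested.

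The difference between the colonization effects was tested itself, and 95 genes (17.1%) passed, 55 with a positive (9.89%) and 40 with a negative (7.19%) difference, or 60 and 19 with centring. In 50 of these the effects had opposite signs, and in 45 they had the same sign and were smaller in PAT mice. In 0 was the effect of the same sign and larger in PAT mice. The 95 genes had a median PAT difference of 0.02, and 3 of them were called in PAT mice. An opposite sign is therefore not by itself a reversed effect. The 108 genes higher with colonization in control mice had a median difference of 1.30 there and of 0.07 in PAT mice, and 4 of them were called higher in PAT mice. The 126 genes lower with colonization in control mice had medians of -0.77 and -0.06, and 3 were called lower in PAT mice. Of the 234 genes, 198 differed by less than 0.5 log2 between SPF PAT and GF PAT. The median size of that difference over all 556 genes was 0.214, so most genes of the panel also lay under 0.5. A small PAT difference was therefore not particular to the 234. Because the genes were taken by their control values, the smaller values in PAT mice are a description only. The PAT and control comparisons share no mouse.

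**Figure D1:**
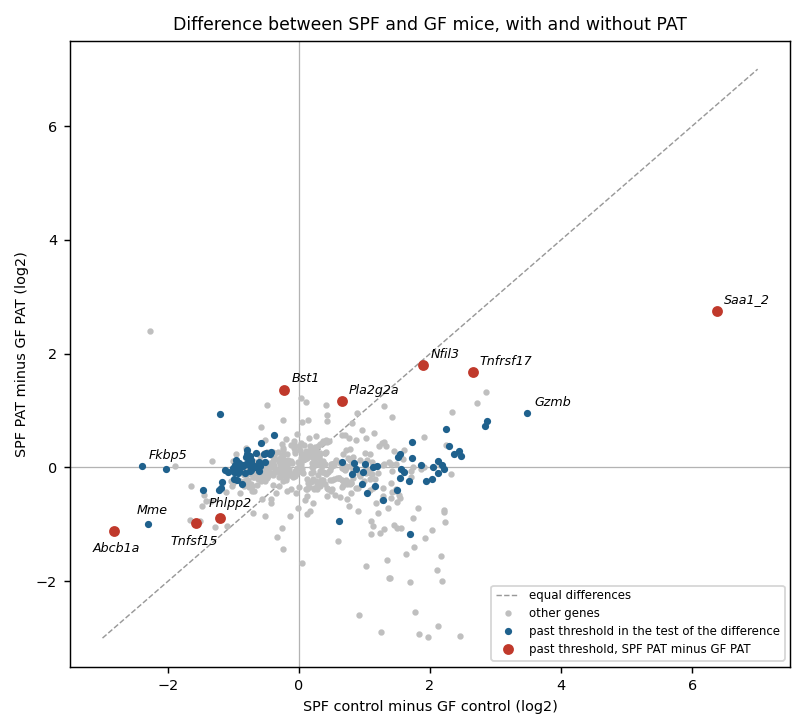
Each point is 1 of the 556 genes, with the SPF control minus GF control difference on the x axis and the SPF PAT minus GF PAT difference on the y axis, both in log2 units, and coloured by the tests passed. The control differences reach 6.38 for Saa1_2, while most genes lie near 0 on the y axis, and the called genes in PAT mice are Nfil3, Saa1_2, Tnfrsf17, Pla2g2a and Bst1 above and Abcb1a, Tnfsf15 and Phlpp2 below.

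Nfil3 differed most clearly. It encodes a basic leucine zipper transcription factor that follows the daily clock, is needed for innate lymphoid cells and acts in gut epithelium on lipid uptake. Its log2 values were 8.59, 8.91 and 8.68 in SPF PAT mice 27, 26 and 21, and 6.86, 6.71 and 7.21 in GF PAT mice 43, 42 and 41. The groups were far apart, and SPF PAT mouse 21 lay with its group. The difference was 1.80 ± 0.19 (SE, n = 3 mice per group, limma adjusted p = 0.00155), a 3.49-fold higher level. In control mice it was 1.89, with values of 9.71, 9.28 and 9.68 in SPF and 7.41, 7.74 and 7.84 in GF mice. The difference between the effects was -0.09, with a 95% interval of -0.68 to 0.50. The time of day at which the mice were killed is not given in the sources used here.

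Saa1_2 had the largest difference among the called genes. The probe is named for Saa1 and Saa2, near-identical genes for serum amyloid A, a retinol-binding acute-phase protein that ileal epithelium makes in response to adherent bacteria, so the share of each gene cannot be given. Values were 8.98, 10.35 and 8.16 in SPF PAT mice and 6.58, 5.95 and 6.71 in GF PAT mice. Every colonized mouse was above every germ-free mouse, with the widest spread of the called genes within SPF PAT. The level was 6.75-fold higher, a difference of 2.75 ± 0.51 (SE, limma adjusted p = 0.0352). SPF control mice stood at 14.75, 13.57 and 14.54 and GF control mice at 7.77, 7.81 and 8.15, a difference of 6.38 or 83.2-fold. The effects differed by -3.62 (limma adjusted p = 0.0150), and SPF PAT mice lay well below SPF control mice, with mouse 21 level with the highest GF control mouse.

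The promoters of these genes are shown because Nfil3 was the call that held under most settings and because one probe stands for both Saa genes. The windows run from 250 bases before to 50 after the annotated start, from RefSeq on GRCm38.p6, and capitals mark TGACCT, the reverse complement of AGGTCA, the core bound by ROR and related nuclear receptors. Nfil3 lies at chr13:52980990-52981289 on the minus strand, Saa1 at chr7:46742931-46743230 on the minus strand and Saa2 at chr7:46751583-46751882 on the plus strand.
Nfil3: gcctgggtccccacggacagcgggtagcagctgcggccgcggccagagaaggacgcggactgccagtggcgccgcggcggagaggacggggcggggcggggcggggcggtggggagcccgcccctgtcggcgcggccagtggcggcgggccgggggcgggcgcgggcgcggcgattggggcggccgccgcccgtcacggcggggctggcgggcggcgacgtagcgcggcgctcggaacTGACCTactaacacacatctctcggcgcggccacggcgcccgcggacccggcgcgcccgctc
Saa1: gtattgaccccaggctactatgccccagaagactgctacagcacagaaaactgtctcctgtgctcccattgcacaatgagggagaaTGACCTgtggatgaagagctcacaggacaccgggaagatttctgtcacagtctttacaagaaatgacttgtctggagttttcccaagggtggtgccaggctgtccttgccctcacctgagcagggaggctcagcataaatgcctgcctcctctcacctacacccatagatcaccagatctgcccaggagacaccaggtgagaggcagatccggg
Saa2: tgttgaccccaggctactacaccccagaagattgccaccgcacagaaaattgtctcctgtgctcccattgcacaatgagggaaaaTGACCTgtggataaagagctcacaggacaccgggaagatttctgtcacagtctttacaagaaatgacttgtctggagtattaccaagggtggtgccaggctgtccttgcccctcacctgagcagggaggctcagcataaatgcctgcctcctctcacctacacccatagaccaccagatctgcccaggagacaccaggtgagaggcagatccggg
The Saa1 and Saa2 windows were identical at 287 of 301 aligned positions (95.3%), and the core lay at -164 in Saa1, -165 in Saa2 and -12 in Nfil3, counted from the start site. AGGTCA on either strand was found in 16.3% of the 32851 RefSeq promoter windows. The E-box CACGTG (in 7.15% of all windows), TTATGTAA (0.938%) and TTACGTAA (0.119%), the last pair being sites of Nfil3 and its relatives, were searched on both strands and had no match in these 3 windows or in those of Abcb1a, Phlpp2, Tnfsf15 and Tnfrsf17. No motif searched contains another, and a match is only a match of letters. Windows for Pla2g2a and Bst1 were not analysed here.

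Tnfrsf17 encodes BCMA, the receptor for the survival factors BAFF and APRIL on plasma cells. SPF PAT mice had 6.29, 6.61 and 5.61, and GF PAT mice 4.80, 4.80 and 3.90. All colonized mice were higher, with a difference of 1.67 ± 0.33 (SE, limma adjusted p = 0.0352), although counts of this gene were low, at 15 to 215 over the 12 mice. In control mice the difference was 2.65, and the effects differed by -0.98 with a 95% interval of -2.01 to 0.06. Tnfsf13b, which encodes BAFF, was at 7.08, 6.90 and 6.74 against 6.37, 6.18 and 6.48, without overlap, but its difference of 0.56 did not pass (limma adjusted p = 0.0918).

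Pla2g2a encodes a secreted phospholipase of Paneth cells that kills Gram-positive bacteria, and C57BL/6 mice are known to carry a frameshift in it. Its values were 10.30, 10.58 and 9.86 in SPF PAT and 9.24, 9.04 and 8.96 in GF PAT mice, with mouse 21 the lowest of the colonized group and still above all GF PAT mice. The level was 2.25-fold higher, a difference of 1.17 ± 0.18 (SE, limma adjusted p = 0.0188), and in control mice the difference was 0.65 (adjusted p = 0.0146). The effects differed by 0.52, with a 95% interval of -0.04 to 1.07.

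Bst1 was the called gene without a colonization call in control mice. It encodes CD157, an enzyme at the cell surface that makes cyclic ADP-ribose and is found on Paneth cells, stromal and myeloid cells. Values were 10.65, 10.35 and 10.76 in SPF PAT and 8.84, 9.64 and 9.18 in GF PAT mice, against 9.04, 8.80 and 8.59 in SPF control and 8.60, 9.03 and 9.48 in GF control mice. The SPF PAT mice were the highest of all 12. Their difference from GF PAT was 1.37 ± 0.26 (SE, limma adjusted p = 0.0352, 2.58-fold), the control difference was -0.23 (adjusted p = 0.488), and the effects differed by 1.60 (adjusted p = 0.0225). Il18rap and Cd164 were the other genes past the test of the difference without a call in control mice. Il18rap, a subunit of the interleukin-18 receptor, differed by -0.94 in PAT mice (adjusted p = 0.145) and by 0.61 in control mice, on counts of 10 to 55. Cd164, a sialomucin, differed by 0.56 in PAT mice and by -0.39 in control mice.

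Abcb1a, Tnfsf15 and Phlpp2 were lower with colonization. Abcb1a encodes the P-glycoprotein efflux pump of the enterocyte brush border. It was at 14.35, 13.91 and 13.72 in SPF PAT and at 15.28, 15.15 and 14.89 in GF PAT mice. Every colonized mouse was lower, and the difference was -1.11 ± 0.19 (SE, limma adjusted p = 0.0264), a 2.16-fold lower level. In control mice it was -2.82, with SPF mice at 12.34, 12.15 and 12.20, and the effects differed by 1.70 (adjusted p = 0.00939). SPF PAT mice therefore lay between SPF control mice and both germ-free groups.

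Tnfsf15 encodes TL1A, a TNF family ligand that costimulates T cells and innate lymphoid cells. It was at 6.57, 6.67 and 5.93 in SPF PAT and at 7.37, 7.46 and 7.28 in GF PAT mice. The groups did not overlap, and the difference was -0.98 ± 0.19 (SE, limma adjusted p = 0.0352), with -1.57 in control mice. Phlpp2 encodes a phosphatase that inactivates Akt. Its values were 10.67, 10.71 and 10.68 in SPF PAT and 11.74, 11.56 and 11.43 in GF PAT mice, the tightest colonized group among the called genes. The difference was -0.89 ± 0.14 (SE, limma adjusted p = 0.0203), with -1.21 in control mice. The effects of the PAT and control comparisons differed by 0.59 for Tnfsf15 (95% interval -0.00 to 1.18) and by 0.32 for Phlpp2 (-0.13 to 0.77), neither past the test.

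**Figure D2:**
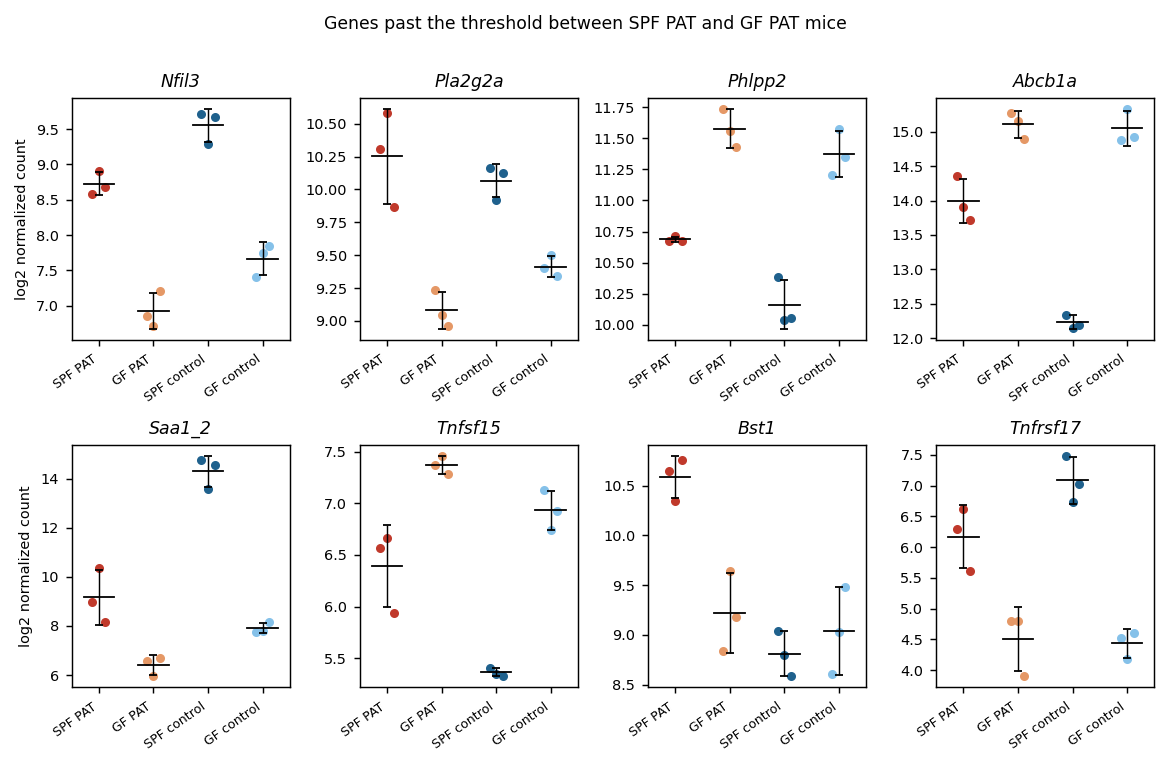
Log2 normalized counts of the 8 genes called between SPF PAT and GF PAT, 1 panel per gene, with each of the 12 mice as a point in its group and bars for the group mean ± SD (n = 3 mice). In each panel the SPF PAT and GF PAT mice do not overlap, and Abcb1a of SPF PAT mice lies between SPF control and germ-free mice.

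Of the 8 called genes, 7 were called in the same direction in control mice, 4 higher and 3 lower. In control mice 42.1% of all genes were called, 19.4% higher and 22.7% lower. All 8 had groups without overlap, as had 76 of the 556 genes (13.7%), 47 higher (8.45%) and 29 lower (5.22%). A further 12 genes without overlap had the next smallest p-values but did not pass the adjusted threshold, and are given as values. Among epithelial genes, Mme (neprilysin, a brush border peptidase) was at 11.31, 10.80 and 10.97 in SPF PAT and 12.19, 11.97 and 11.92 in GF PAT mice, lower in every colonized mouse, with a 95% interval of -1.47 to -0.53 (limma adjusted p = 0.0520). Itln1, the microbe-binding lectin of Paneth and goblet cells and the most counted gene on average, was at 16.65, 16.80 and 16.08 against 15.78, 15.69 and 15.63. Its difference was 0.81 in PAT mice (adjusted p = 0.0820) and 0.05 in control mice. Nos2, which encodes inducible nitric oxide synthase, was at 8.46, 8.69 and 7.56 against 6.92, 7.12 and 6.67, a difference of 1.33 (adjusted p = 0.102) that compares with 2.85 in control mice. The remaining ones were Card9 (0.95), an adaptor of fungal sensing, C4bp (0.81), a complement inhibitor, Il4ra (0.43), Cd97 (0.40), Tigit (0.67), Gzmb (0.96), Tnfsf13b, Il18rap and H2-Ea-ps (1.23), an MHC class II pseudogene in C57BL/6 counted only 5 to 18 times. Of the 12, 10 were higher and 2 lower in SPF PAT, and 7 were called in control mice, beside 42.1% over all genes.

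No gene of the T cell lists was called between colonized and germ-free PAT mice, where 1.44% of all genes were called. At that share a count of 0 is near the background for lists of these sizes, here and below. Of 20 measured genes of the T cell receptor complex and its signalling, 0 passed, 14 had a difference below 0, and the median was -0.08 beside -0.03 over all genes, while in control mice 13 were called higher (19.4% over all genes) with a median of 1.71. The PAT median was -0.50 without SPF PAT 21, -0.32 without GF PAT 43 and 0.40 with the mean of 5 B cell markers as a covariate, which gave a control median of 1.15, so it has no settled sign. Cd8a, the co-receptor of cytotoxic T cells, was at 5.55, 6.05 and 6.78 in SPF PAT and 6.01, 6.10 and 6.58 in GF PAT mice, so the groups overlapped fully. In SPF control mice it was at 7.87, 8.01 and 7.87 against 5.28, 5.76 and 6.35 in GF control mice, and the effects differed by -2.22 (limma adjusted p = 0.0167). Cd3e, of the T cell receptor complex, differed by -0.02 in PAT mice with a 95% interval of -0.95 to 0.91, and Cd4 by -0.04 (-0.73 to 0.64). Foxp3, the factor of regulatory T cells, was at 2.85, 3.05 and 3.23 in SPF PAT and 3.91, 3.45 and 4.22 in GF PAT mice, on counts of 6 to 21. Every colonized mouse was below every germ-free mouse, but the difference of -0.82 (-1.67 to 0.03) did not pass (limma adjusted p = 0.504). These intervals are wide, and they do not show that the levels were alike. In tissue RNA, fewer cells of a type and less RNA per cell cannot be told apart.

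Cytotoxic genes had no call either, beside 1.44% over all genes. Gzmb, which encodes granzyme B of cytotoxic and intraepithelial lymphocytes, was at 5.94, 6.15 and 6.58 in SPF PAT and 5.42, 4.85 and 5.51 in GF PAT mice, without overlap, and the difference of 0.96 did not pass (limma adjusted p = 0.111). In control mice it was 3.48, and the effects differed by -2.52 (adjusted p = 0.00467). Ccl5, a chemokine of the same cells, was at 8.55, 9.07 and 9.50 against 8.24, 7.77 and 8.64, with overlap, and its effects of 0.82 and 2.87 differed by -2.05 (adjusted p = 0.0153). Over the 25 cytotoxic and NK cell genes 0 passed, with a median of 0.07. The inhibitory receptor Tigit, at 4.66, 5.28 and 4.87 against 4.19, 4.45 and 4.15, had effects of 0.67 and 2.24 that differed by -1.56 (adjusted p = 0.00972), on counts of 9 to 68. Among the 14 co-inhibitory and co-stimulatory receptors 0 passed, with a median of 0.11.

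In the Th17 and ILC3 list 0 of 21 genes passed in PAT mice, beside 1.44% over all genes. The list median was -0.07 against 0.86 in control mice, or 0.12 against 0.50 with the B cell covariate. Il17a was at 3.07, 3.05 and 2.72 in SPF PAT and 2.69, 2.99 and 3.90 in GF PAT mice, on counts of 4 to 26, and its effects of -0.25 and 1.68 differed by -1.92 (limma adjusted p = 0.0322). The neutrophil list had 0 of 11 passing and a median of -0.12 against 0.91. Its calprotectin gene S100a9 differed by 0.23 in PAT and 2.36 in control mice, and S100a8, its partner subunit, by -1.18 and 1.70, on counts of 4 to 44. The effects differed by -2.13 (adjusted p = 0.0391) and -2.87 (adjusted p = 0.0294). For S100a8 the latter did not pass when each mouse was centred on its median (adjusted p = 0.0686), under quantile normalization (0.0998) and without SPF PAT 27 (0.0667), SPF control 2 (0.0740) or GF PAT 42 (0.0612).

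MHC class II genes, which present peptides to CD4 T cells, had 0 of 13 passing, beside 1.44% over all genes. Their median was -0.04 in PAT mice against 1.39 in control mice. The PAT median was -0.35 without SPF PAT 21 and -0.14 without GF PAT 43, and with the B cell covariate the medians were 0.24 in PAT and 0.69 in control mice. H2-Aa was at 12.92, 13.08 and 13.77 in SPF PAT and 13.00, 13.19 and 13.59 in GF PAT mice, a difference of -0.00 with a 95% interval of -0.60 to 0.60, against 15.04, 15.04 and 14.74 in SPF control mice. Cd74, the invariant chain, differed by -0.02 in PAT and 2.21 in control mice, and the effects differed by -2.23 (limma adjusted p = 0.0153). Interferon-stimulated genes had 0 of 18 passing and a median of -0.06, and 8 of the 18 passed the test of the difference between the effects, which 17.1% of all genes passed. Cxcl10, a chemokine for activated T cells, was at 5.51, 5.73 and 5.61 in SPF PAT and 6.10, 6.42 and 6.07 in GF PAT mice, lower in every colonized mouse though not past the test (-0.58, adjusted p = 0.164). In control mice it was higher with colonization by 1.27, and the effects differed by -1.85 (adjusted p = 0.00467).

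Fkbp5 had the smallest p for a difference between the effects. It encodes a co-chaperone that glucocorticoids induce. Its values were 8.67, 8.88 and 8.95 in SPF PAT and 8.94, 8.88 and 8.62 in GF PAT mice, which overlapped, against 7.44, 7.33 and 7.06 in SPF control and 9.53, 9.86 and 9.65 in GF control mice. The PAT difference was 0.02 with a 95% interval of -0.32 to 0.36, the control difference was -2.40, and they differed by 2.42 (limma adjusted p = 0.000372). Both PAT groups lay between the control groups. Cxcl11, which shares a receptor with Cxcl10, had effects of -0.03 and -2.03 that differed by 1.99 (adjusted p = 0.0153). Itga2b, the platelet integrin alpha IIb, differed by 0.94 in PAT mice (adjusted p = 0.154) and by -1.21 in control mice, and the effects differed by 2.14 (adjusted p = 0.0103), on counts of 9 to 39.

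**Figure D3:**
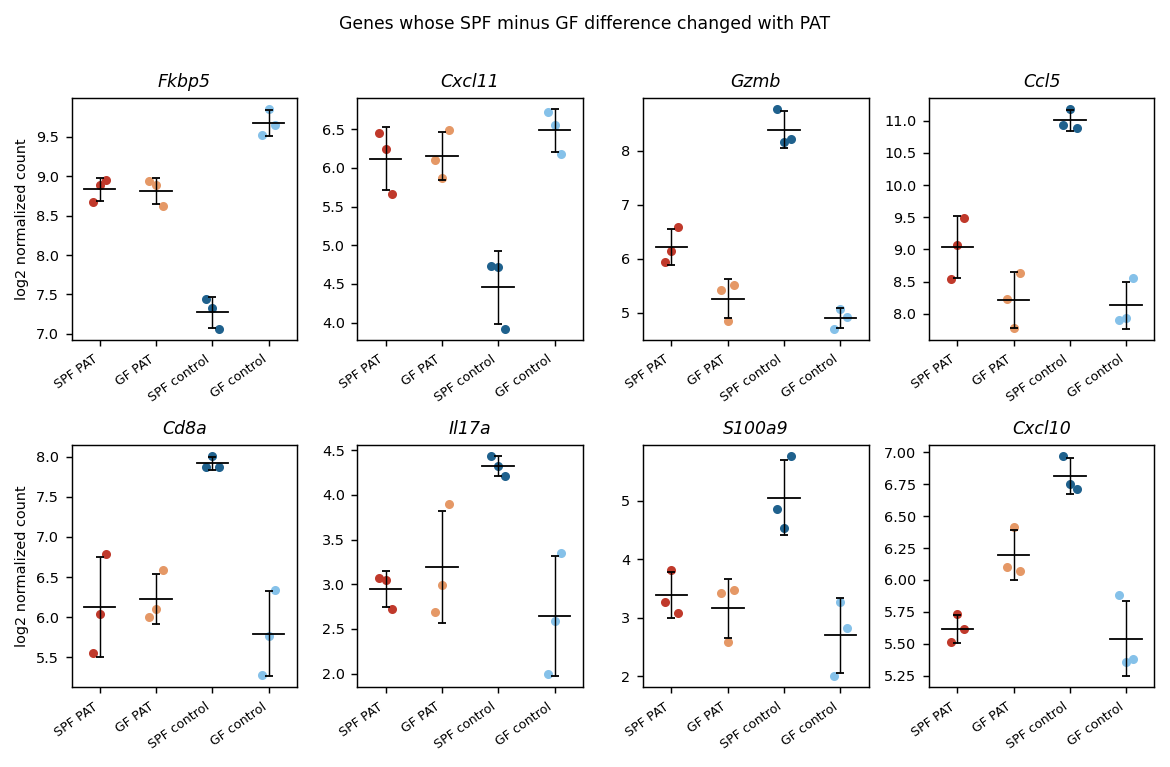
Log2 normalized counts of Fkbp5, Cxcl11, Gzmb, Ccl5, Cd8a, Il17a, S100a9 and Cxcl10, whose colonization effect differed between PAT and control mice, with 1 panel per gene, each mouse as a point and bars for the group mean ± SD (n = 3 mice). The control groups are far apart in each panel, by -2.40 for Fkbp5 and 3.48 for Gzmb, whereas SPF PAT and GF PAT differ by 0.02 and 0.96.

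Epithelial defence and transport genes included 4 of the calls, 2 higher (Saa1_2 and Bst1) and 2 lower (Abcb1a and Tnfsf15) of 20 measured, beside 1.44% called over all genes. The list was written with earlier results known. Its median was 0.10, and 8 of the 20 passed the test of the difference between the effects, beside 17.1% over all genes. Il18, an epithelial cytokine, had a difference of 1.07 that did not pass. Pigr, the receptor that carries IgA into the lumen, was at 15.35, 15.67 and 14.64 in SPF PAT and 14.87, 14.60 and 14.64 in GF PAT mice, a difference of 0.52 (95% interval -0.02 to 1.05, limma adjusted p = 0.504), with 0.77 in control mice. The epithelial marker sum was 208910, 221796 and 142876 normalized counts in SPF PAT and 175827, 160236 and 150162 in GF PAT mice, lowest in mouse 21, and its part in these results was not tested.

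The other lists had medians near that of all genes and 0 calls, namely regulatory T cell genes (10 measured, 0.06), MHC class I and immunoproteasome genes (13, -0.05), Toll-like and NOD receptor genes (18, 0.12), complement genes (28, 0.11), chemokines and their receptors (45, -0.01), macrophage and dendritic cell markers (17, 0.04) and stromal and endothelial markers (9, -0.04). Over all genes 1.44% were called. The 10 small intestinal epithelium markers had a median of 0.00 and 1 call, Abcb1a. Nfil3 and Fkbp5 were the 2 measured genes of the clock and glucocorticoid list. Centring each mouse on its median raised the median of all genes by 0.10 and turned the sign of 7 of the 18 list medians, and quantile normalization turned 6, so no direction is given to medians this small.

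**Figure D4:**
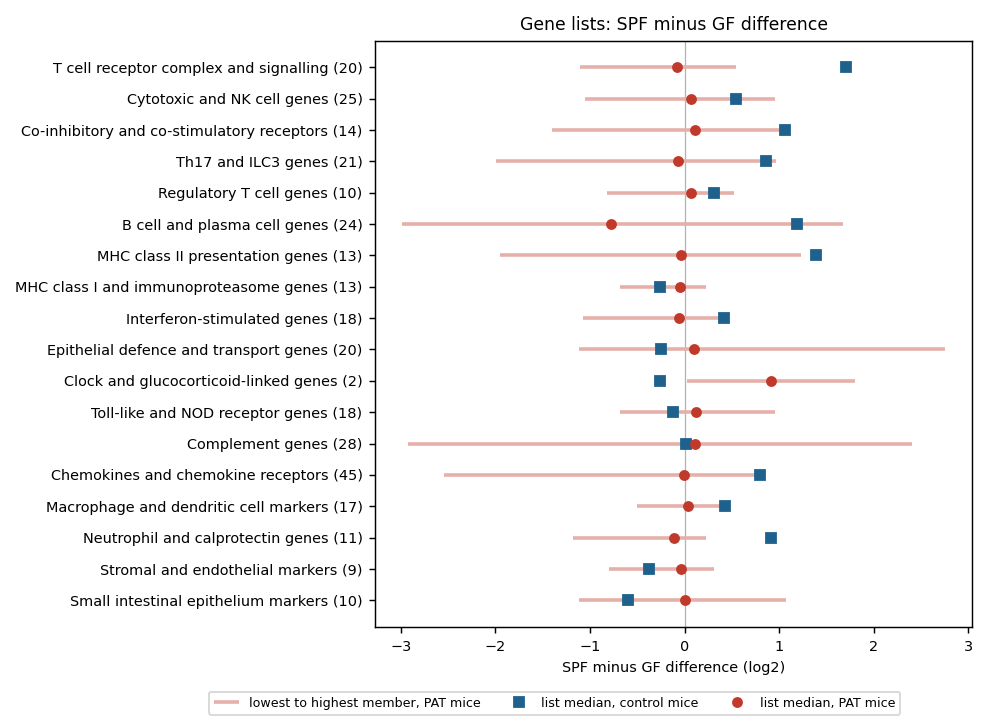
Median SPF minus GF difference in log2 units of each of the 18 gene lists, for PAT mice and for control mice, with lines from the lowest to the highest gene in PAT mice and the number of measured genes beside each list. T cell, MHC class II and B and plasma cell lists have control medians of 1.71, 1.39 and 1.19, against -0.08, -0.04 and -0.78 in PAT mice, and with the B cell covariate 1.15, 0.69 and 0.09 against 0.40, 0.24 and 0.11 (not drawn).

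The B cell markers varied between mice more than between groups. The summed B cell markers, which include Cd79a, Ms4a1 and Cr2, were 127 and 185 normalized counts in SPF PAT mice 27 and 26 but 4351 in mouse 21, and 1070, 2414 and 4208 in GF PAT mice 43, 42 and 41. SPF control mice ranged from 363 to 5084 and GF control mice from 96.7 to 2475. No marker was at 0 in any mouse. Ms4a1, which encodes the B cell surface protein CD20, was at 4.91, 5.28 and 10.98 in SPF PAT and 8.76, 9.99 and 10.77 in GF PAT mice, a difference of -2.78 with a 95% interval of -7.00 to 1.44. Of the 24 genes of the list 17 had a difference below 0, with a median of -0.78, which was -1.29 without mouse 21 and 0.11 with the mean of the 5 markers as a covariate, when the control median was 0.09 in place of 1.19. The 1 call was Tnfrsf17, in the other direction, and Prdm1 and Xbp1, factors of plasma cells, differed by 0.27 and 0.37 without passing. Xbp1 was nevertheless higher in every SPF PAT mouse than in every GF PAT mouse. Of the 24 genes, 3 were higher without overlap and 0 lower, beside 8.45% and 5.22% over all genes.

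Other cell markers moved less. T cell marker sums were 274, 341 and 812 in SPF PAT and 338, 492 and 645 in GF PAT mice, with mouse 21 the highest of the 6, against 837 to 1327 in SPF control mice. Macrophage markers were 914, 1200 and 876 against 1010, 840 and 842, neutrophil markers 31.2, 51.9 and 37.6 against 65.4, 52.7 and 34.5, and stromal and endothelial markers 2083, 2142 and 1674 against 1986, 1808 and 1863. With the B cell marker mean as a covariate, chosen after seeing the data, 8 genes passed, of which 6 were among those above. Saa1_2 (2.37, limma adjusted p = 0.0554) and Tnfrsf17 (1.35, 0.0554) were not among them, and Pparg (-1.40, adjusted p = 0.00306) and Il1rl1 (lower, adjusted p = 0.0121), which encode a lipid-sensing nuclear receptor and the interleukin-33 receptor, were added. The share of B cell markers in the other results was not tested.

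**Figure D5:**
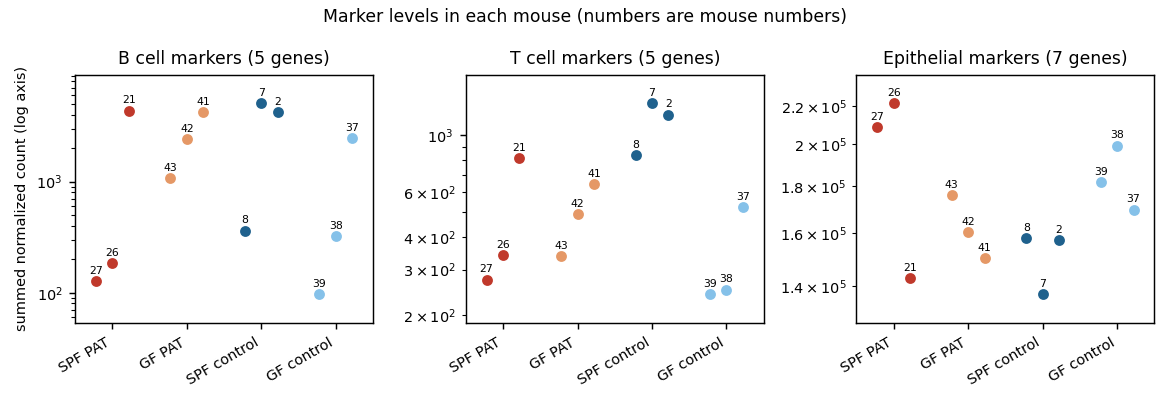
Summed normalized counts of B cell, T cell and small intestinal epithelium markers in each of the 12 mice, on a log axis, grouped as SPF PAT, GF PAT, SPF control and GF control. B cell marker sums in SPF PAT mice run from 127 to 4351, and epithelial sums over the 12 mice from 137096 to 221796. Of the 7 epithelial genes, 4 had SPF PAT and GF PAT groups without overlap, beside 13.7% over all genes. Itln1 was higher and Abcb1a, Mme and Dpp4 were lower in SPF PAT, so their sum can hide opposite changes.

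The calls rested on few mice. Leaving out SPF PAT 26, GF PAT 42 or GF PAT 41 left 1 called gene, Nfil3, and leaving out SPF PAT 27 left Nfil3 and Abcb1a. Without mouse 21, 11 genes passed, 7 of them among the 8, with Itln1, C4bp, Nos2 and Nfkbiz added and Bst1 lost. Of the control mice, which enter the shared spread, leaving out SPF control 8, 7 or 2 left 4, 5 and 3 calls and GF control 38 or 37 left 4 and 5, and without GF PAT 43 there were 4, of which Rag1 and H2-Ea-ps were not among the 8. The number of genes past the test of the difference was 217 without mouse 21, 35 without SPF PAT 27, 50 without SPF PAT 26, 45 without GF PAT 42 and 37 without GF PAT 41. It was 51 and 45 without SPF control 7 and 2, and 58 and 47 without GF control 39 and 38. With the 2 PAT groups fitted alone 0 genes passed limma's adjusted threshold, 45 had an unadjusted p under 0.05, and Nfil3 had an adjusted p of 0.0537.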

How the data were processed

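RNA of the terminal ileum of 12 mice was measured with the nCounter GX mouse immunology panel. The labels give TRIzol with an RNeasy cleanup, and the methods a miRNAeasy kit. The authors normalized counts with DESeq2 and deposited them as log2 values, which were used as given. The table has 584 rows, 28 of them controls without values (14 reference genes, 8 negative and 6 positive controls), so background could not be set from controls, and 556 genes remained. With 1 size factor per mouse (0.830 to 1.25) every value gave a whole count within 0.01. A count of 0 is written as 0, the same as a normalized count of 1. The mean normalized count was under 20 for 111 genes. Of the symbols, 537 matched the RefSeq table of GRCm38.p6, 16 an older name and 3 none. No probe sequences were used.

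Groups came from the labels. Differences were tested in limma 3.58.1 (lmFit, eBayes, R 4.3.3), two-sided, fitting a mean for each group to the 12 mice jointly so that the groups share one spread, and Benjamini-Hochberg adjustment over 556 genes for each comparison at 0.05. Intervals are 95% and not adjusted. P-values measure the spread between mice, whose litters are not labelled. Promoter windows were searched in Python and aligned in Biopython 1.88. On simulated data of SPF PAT against GF PAT, 200 of 556 genes were changed. There limma recovered 71% of genes changed by 1 log2 and 89% of those changed by 2, with 3 false among 163 calls. Tukey HSD recovered 47% and 74%. An adjusted threshold is easier to pass when many genes change, and only 8 were called in the data. These shares therefore do not give the power of the real comparison.

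The genes named were all called genes, the next 12 by p without overlap, the largest 3 positive and 3 negative differences between the effects, up to 3 members of each list with the largest difference and the largest control differences, of which a part is printed and 1 is not reported here. Ccl5, Cd74, Cxcl10, Cd164, H2-Aa, Cd3e, Prdm1, Xbp1, Ms4a1 and genes called under single settings were named after their values were seen. The comparison, the gene lists and the rule were chosen with earlier results of these data known. Alternatives were the methods' Tukey HSD under Benjamini-Hochberg and Benjamini-Yekutieli adjustment, only the groups compared, intensity trend, robust estimation, centring on the median, quantile normalization, only genes with a mean normalized count of at least 20, log2 of the normalized count plus 1, voom on recovered counts, an absolute log2 difference of at least 1, leaving out each mouse and, chosen after seeing the data, a covariate of 5 B cell markers.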

Additional observations from a re-analysis of the deposited data

Results flagged for a closer look

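The colonization effect differed between PAT and control mice for 95 genes by limma's test of the difference itself. Among the genes named, the PAT effect minus the control effect was positive for Fkbp5 (2.42), Itga2b (2.14), Cxcl11 (1.99), Abcb1a (1.70), Bst1 (1.60), Mme (1.31) and Pdgfrb (1.11) on the log2 scale. It was negative for Saa1_2 (-3.62), S100a8 (-2.87), Gzmb (-2.52), Cd8a (-2.22), S100a9 (-2.13), Ccl5 (-2.05), Il17a (-1.92), Cxcl10 (-1.85), Tigit (-1.56), Il18rap (-1.55) and Socs1 (-1.48). The control effect of Mme was -2.31. The PAT and control effects were, for Pdgfrb, a receptor of pericytes and fibroblasts, 0.31 and -0.80, and for Socs1, an inhibitor of cytokine signalling, -0.44 and 1.03. Groups of 3 mice are too small to call a single mouse far from its group by a rule of spacing.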

How the results depend on the processing

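The 8 genes called between SPF PAT and GF PAT became 1 (Nfil3) with Tukey HSD under Benjamini-Hochberg adjustment, 0 under Benjamini-Yekutieli (29 at an unadjusted p under 0.05), 0 with only the groups compared (45) and 1 (Nfil3) with median centring, and 1 to 11 with a mouse left out. Other settings gave 6 to 10. The 234 genes of the control comparison became 142 and 49 under the Tukey adjustments and 99 with an absolute log2 difference of at least 1, and ranged from 169 to 259 with a mouse left out. Their split was 72 higher and 137 lower with quantile normalization. The 95 genes of the difference became 1 (Fkbp5) under Benjamini-Yekutieli, 44 with the B cell covariate and 50 at an absolute log2 difference of at least 1, and ranged from 35 to 217 with a mouse left out. The 8 called genes, the 6 largest differences between the effects and the 6 largest control effects were followed through these settings. Benjamini-Yekutieli adjustment and the minimum log2 difference were left out of these per-gene counts. In the settings counted, 0 of these 20 results reversed. Median centring adds 0.10 to PAT differences, so those of Cd4, Cd3e, Cd74 and H2-Aa, which lie closer to 0 than that, have no settled sign. Nfil3 lost its call in 1 of 22 settings, and the other called genes in 7 (Pla2g2a) to 17 (Tnfrsf17). Each of the 8 also lost its call under Benjamini-Yekutieli adjustment, which is not among the 22. Of the differences between the effects, that of S100a8 lost its call in 5 of 20 settings. That of Cxcl11 lost it in 1 of 21 (the B cell covariate). Every followed difference but that of Fkbp5 was also lost under Benjamini-Yekutieli adjustment, which is not counted here. Genes with few counts, such as S100a8, allow only large differences to be seen. No paired analysis was possible because the groups share no replicate numbers.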
